A study of Mus musculus with 14 samples.

Results

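The 33 genes described here encode the route by which muscle takes up long-chain fatty acids and burns them in mitochondria. They were chosen by symbol from textbook roles in uptake, activation, the carnitine shuttle, beta oxidation and electron transfer. The choice was made with earlier results of these data known. All 33 were found among the 52550 genes of the deposited count table. Together they held 232552 reads. For 30 of them the counts were high enough to be tested, among 11088 tested genes in all.

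The study profiled triceps muscle from 14 male mice by 3′-end sequencing (QuantSeq FWD), in which each read comes from near the end of a messenger RNA. There were 4 groups: 4 FLExDUX4 mice and 4 WT mice with 6 weeks of voluntary wheel running, and 3 FLExDUX4 mice and 3 WT mice as no-running controls. FLExDUX4 mice carry a human DUX4 transgene and model facioscapulohumeral muscular dystrophy. By its title, the study asked whether aerobic exercise improves deficits of that model. The labels give no age, strain, litter or Cre driver, and no DUX4 value was analysed here, so the activity of the transgene was not checked. Gene counts per library ran from 3439957 to 6686356 in FLExDUX4 runners, 4721606 to 6092676 in WT runners, 3949656 to 6995811 in FLExDUX4 controls and 3269357 to 4670830 in WT controls. The 9 skeletal muscle markers were abundant in every library (summed CPM, a scale of reads relative to library size, of 97557 to 134430 in FLExDUX4 runners, 91843 to 134004 in WT runners, 129504 to 142512 in FLExDUX4 controls and 147015 to 153167 in WT controls), while of 5 cardiac markers none had enough counts for a test and Nppa and Myl7 were at 0.

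Long-chain fatty acids are freed from circulating lipoproteins by lipoprotein lipase, cross the cell membrane with the help of CD36 and other transporters, and are carried in the cytosol by fatty acid binding proteins. Acyl-CoA synthetases trap them as CoA esters, and the carnitine shuttle moves the acyl groups into the mitochondrial matrix. There each turn of beta oxidation passes through an acyl-CoA dehydrogenase, a hydratase, a hydroxyacyl-CoA dehydrogenase and a thiolase, and the electrons taken by the dehydrogenases reach the respiratory chain through the electron transfer flavoprotein. Oxidative muscle fibres and trained muscle are known for a high capacity of this pathway, and nuclear receptors of the PPAR and ERR families are known to drive many of its genes.

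In WT mice, nearly the whole pathway had higher values after running. Of the 30 tested genes 29 had a log2 difference above 0 in WT runners against WT controls, with a median of 0.74, while the median of all 11088 genes was 0.01. Etfb and Hadhb rose past the threshold (edgeR quasi-likelihood test, Benjamini-Hochberg adjusted p under 0.05 across the 11088 genes) and none fell. That is 2 of 30 members, where 0.496% of all genes were called, 0.397% as higher and 0.0992% as lower. At an unadjusted p under 0.05 there were 21 members, against 10.7% of all genes. In 18 of 30 members every WT runner was above every WT control, and in 0 was every runner below, against 5.74% and 4.56% of all genes.

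How many genes passed depended on the test and on single mice. DESeq2 called 15 members, both of these included, among 194 calls over all 11088 genes. limma-voom called 2, Cd36 and Fabp3, among 23. Leaving out WT runner 3 gave 15 calls, among 197 over all tested genes, and leaving out FLExDUX4 runner 4 gave 10 among 118. Without FLExDUX4 runner 2 there were 8 among 103, and without WT runner 2 there were 4 among 51. It was 1 call, Etfb, without any 1 of the FLExDUX4 controls, among 19, 25 and 38 for controls 1, 2 and 3. No member was called without FLExDUX4 runner 1 or 3 (12 and 15 genes called), or without WT runner 1 or 4 (10 and 2). The same held without any 1 of the WT controls, where 0, 4 and 10 genes were called without control 1, 2 and 3. The median over the members stayed between 0.64 and 0.84 in these 14 fits. Library sizes taken from the spike-in RNAs moved the median of all genes by 0.36, and beside that shift the members' median was 1.11 with 22 calls, among 604 calls over all genes.

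In FLExDUX4 mice the values lay nearer 0 and no gene passed the test. The median running difference of the 30 genes was 0.22 (all genes 0.01), with 24 above 0 and 6 below. None passed the threshold with edgeR, DESeq2 or limma-voom, as for 0% of all genes with edgeR. At an unadjusted p under 0.05 there were 3 members, Cd36, Etfa and Acot13, against 6.66% of all genes. The groups did not overlap for 1 member, Ucp3, which was lower in all 4 FLExDUX4 runners than in the 3 FLExDUX4 controls (3.45% of all genes were lower without overlap and 3.72% higher), so 1 of 30 is near the share of all genes.

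Averaged over both genotypes, 5 members rose with running: Cd36, Etfa, Etfb, Acot13 and Hadh, or 5 of 30 where 0.857% of all genes were called in either direction, 0.55% as higher and 0.307% as lower. This count was 13 without FLExDUX4 runner 4 or WT runner 3, among 286 and 239 calls over all tested genes. It was 1, Acot13, without FLExDUX4 runner 1 or 3 or WT runner 1, among 40, 55 and 56. It was 0 without FLExDUX4 runner 2, WT runner 4, or FLExDUX4 control 1 or 3 (32, 23, 17 and 42 genes called). It was also 0 without WT control 1, 2 or 3 (22, 45 and 41 genes called). Without WT runner 2 or FLExDUX4 control 2 there were again 5 calls (123 and 98 genes called), but Cd36 was not among them. The median of the 30 genes was 0.52, and 21 had an unadjusted p under 0.05 (12% of all genes).

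**Figure D1:**
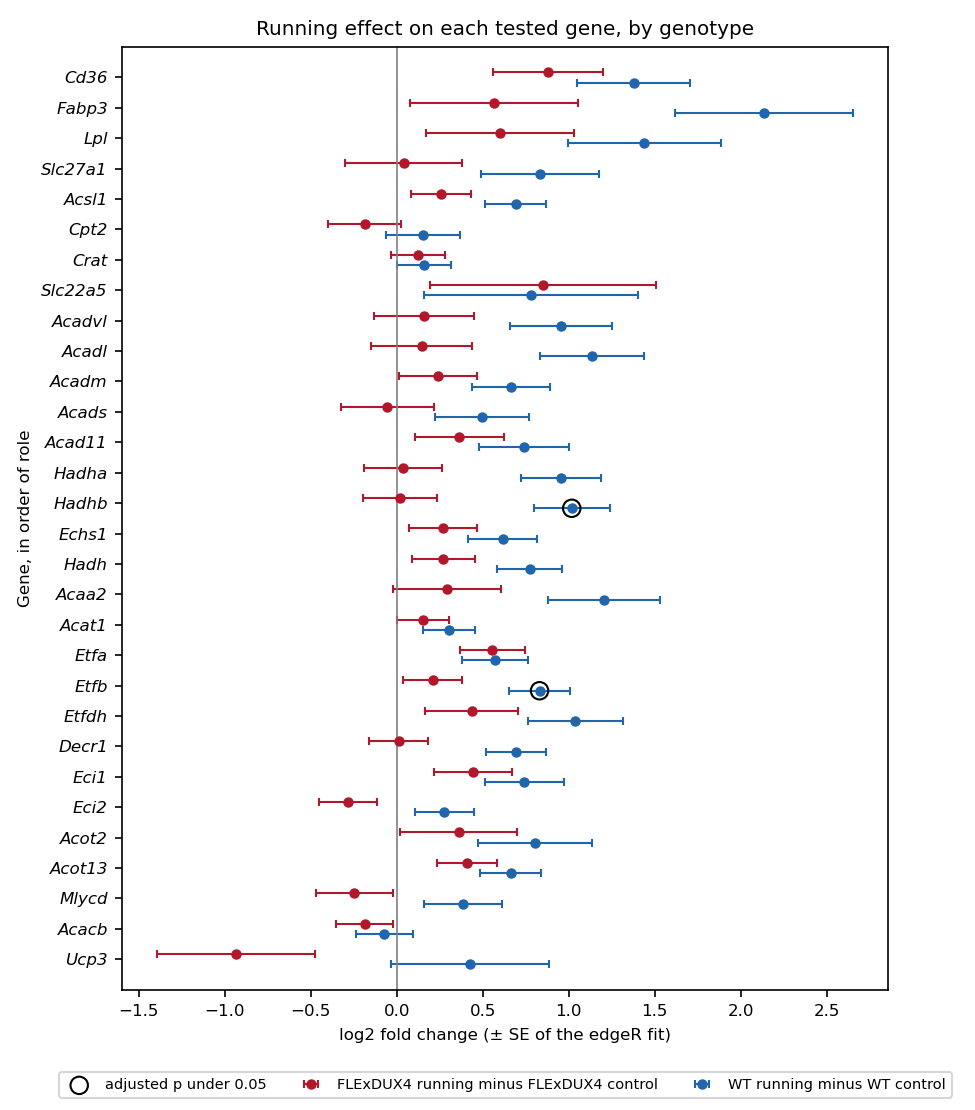
Log2 difference of runners minus controls (x axis) for each of the 30 tested genes (y axis, in order of role), in FLExDUX4 mice (red) and WT mice (blue); bars are the standard error of the edgeR fit and circles mark an adjusted p under 0.05. The FLExDUX4 points lie right of 0 for 24 genes with a median of 0.22, the WT points for 29 of 30 with a median of 0.74, and only Hadhb and Etfb in WT mice are circled.

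The 4 uptake genes had a median log2 difference of 1.41 in WT runners against WT controls, the highest of the 10 roles. Cd36 (ENSMUSG00000002944, chromosome 5, 17781690 to 17888801 on GRCm38) encodes a membrane receptor that takes up long-chain fatty acids. It had 168, 203, 132 and 76.96 CPM in FLExDUX4 runners, against 63.4, 86.5 and 85.9 in FLExDUX4 controls. WT runners had 185, 128, 86.1 and 176 CPM, against 55.95, 60.5 and 49.3 in WT controls. Every WT runner was above every WT control, and 3 of 4 FLExDUX4 runners were above all FLExDUX4 controls, runner 4 being the exception. On the log2 scale the difference was 0.88 ± 0.32 (adjusted p = 0.71) in FLExDUX4 mice and 1.38 ± 0.33 (adjusted p = 0.096) in WT mice, where ± is the standard error of the edgeR fit. Averaged over genotype, Cd36 rose by 1.13 ± 0.23 (adjusted p = 0.0452).

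Fabp3, the fatty acid binding protein of heart and oxidative muscle, had 231, 499, 251 and 121 CPM in FLExDUX4 runners, against 141, 241 and 175 in FLExDUX4 controls. Its WT values were 593, 326, 189.8 and 559 CPM in runners, against 84.1, 98.1 and 103 in controls. The WT groups were far apart, whereas FLExDUX4 runners 1, 3 and 4 lay within or near the range of their controls and only runner 2 stood clear. In log2 terms the difference was 0.57 ± 0.49 (adjusted p = 0.895) in FLExDUX4 mice and 2.14 ± 0.52 (adjusted p = 0.125) in WT mice. The last 81 bases of Fabp3 are shared with Zcchc17 on the opposite strand, which had 3311 reads, and the strand setting of the counting was not given in the sources used here.

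Lpl, the lipase that frees fatty acids from lipoproteins at the capillary wall, had 775, 1024, 724 and 279 CPM in FLExDUX4 runners, against 405, 399 and 580.4 in FLExDUX4 controls. Among WT mice, runners had 1231, 808, 424 and 749.6 CPM, against 311, 235 and 342 in controls. FLExDUX4 runner 4 was the lowest mouse of both FLExDUX4 groups, the other runners were above all their controls, and the WT groups did not overlap. The log2 difference was 0.60 ± 0.43 (adjusted p = 0.863) in FLExDUX4 mice and 1.44 ± 0.44 (adjusted p = 0.232) in WT mice. Slc27a1, a fatty acid transport protein of the plasma membrane, had low counts, with 5.13 to 10.8 CPM in FLExDUX4 runners, 10.6 to 14.4 in WT runners, 6.58 to 9.52 in FLExDUX4 controls and 4.63 to 9.29 in WT controls. Its WT groups did not overlap either (log2 difference 0.83 ± 0.34, adjusted p = 0.344).

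Adipocytes and capillary endothelium also express some of these uptake genes. Summed CPM of 8 white adipocyte markers ran from 64.8 to 249 in FLExDUX4 runners, 84.3 to 153 in WT runners, 99.5 to 236 in FLExDUX4 controls and 139 to 168 in WT controls, and of the 7 that could be tested all were below 0 in WT runners against WT controls (median log2 difference -0.56). With spike-in library sizes 6 of these 7 were below 0 (median -0.23). The 11 endothelial markers summed to 152 to 259 CPM in FLExDUX4 runners, 231 to 336 in WT runners, 186 to 224 in FLExDUX4 controls and 157 to 168 in WT controls. All 10 tested endothelial markers were above 0 in WT runners, and 1 was called, where 0.397% of all genes were called higher. It was Kdr, which encodes a VEGF receptor, with a difference of 1.21 ± 0.26 (adjusted p = 0.0411). That call was lost in 9 of 14 fits that each leave out 1 mouse. Red blood cell genes, 4 globins and Alas2, summed to 478 to 1743 CPM in FLExDUX4 runners, 1134 to 1840 in WT runners, 672 to 990 in FLExDUX4 controls and 441 to 955 in WT controls. In WT runners all 5 were above 0 and at an unadjusted p under 0.05, where 10.7% of all genes were. Their median log2 difference was 1.12, and none was called by edgeR. The 7 macrophage markers had a median of 0.07, with 4 above 0 and 3 below. The part of endothelial or blood RNA in the uptake genes and the other members was not tested. In whole muscle, fewer cells of a type and less RNA per cell cannot be told apart.

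Acsl1, the main acyl-CoA synthetase of oxidative tissues, had 208, 218, 176 and 124 CPM in FLExDUX4 runners, against 149, 133 and 172 in FLExDUX4 controls. For WT mice the values were 255, 222, 144 and 216 CPM in runners, against 129, 129 and 131 in controls. The WT controls were nearly equal and below all WT runners, while the FLExDUX4 groups overlapped. On the log2 scale the difference was 0.26 ± 0.17 (adjusted p = 0.841) in FLExDUX4 mice and 0.69 ± 0.18 (adjusted p = 0.0637) in WT mice.

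None of the 3 tested carnitine shuttle genes passed the test. Cpt2, which rebuilds acyl-CoA on the matrix side of the inner membrane, had 40.8, 45.2, 31.9 and 30.5 CPM in FLExDUX4 runners, against 48.01, 39.6 and 38.98 in FLExDUX4 controls. WT mice that ran had 43.3, 22.6, 30.5 and 42.3 CPM, against 26.7, 39.8 and 26.8 in WT controls. Both pairs of groups overlapped, with log2 differences of -0.18 ± 0.21 (adjusted p = 0.942) in FLExDUX4 mice and 0.15 ± 0.22 (adjusted p = 0.881) in WT mice. Crat, carnitine acetyltransferase, which buffers acetyl-CoA, had 90.6, 86.4, 107 and 68.4 CPM in FLExDUX4 runners, against 67.2, 79.5 and 94.7 in FLExDUX4 controls. In WT mice it had 96.6, 91.5, 89.9 and 103 CPM in runners, against 84.98, 88.4 and 82.4 in controls. The WT groups did not overlap but lay close together, and the difference of 0.16 ± 0.16 (adjusted p = 0.822) was about the size of its error. Slc22a5, the carnitine transporter of the cell membrane, had few reads (1.57 to 4.08 CPM in FLExDUX4 runners, 2.13 to 5.66 in WT runners, 0.997 to 1.65 in FLExDUX4 controls and 1.51 to 3.37 in WT controls). Its log2 difference was 0.85 in FLExDUX4 mice and 0.78 in WT mice, neither at an unadjusted p under 0.05.

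Cpt1b, the muscle form of the carnitine palmitoyltransferase at the entry of the shuttle, could not be read. It had 3 reads in all 14 libraries, each of them in WT runner 1. In GENCODE M21 the last 500 exonic bases of Cpt1b lie inside a read-through gene of the same strand, Gm44502. That gene has no row in the deposited counts, so its part in the low count of Cpt1b was not tested. The table gives Cpt1b the same position as the neighbouring Chkb (chromosome 15, 89416405), which had 14 to 114 reads per mouse. Whether reads of Cpt1b were assigned elsewhere was not tested, and these counts were not taken as its level. Acad9, which acts mainly in complex I assembly, and Acad10 had 99 and 71 reads in all and were not tested.

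**Figure D2:**
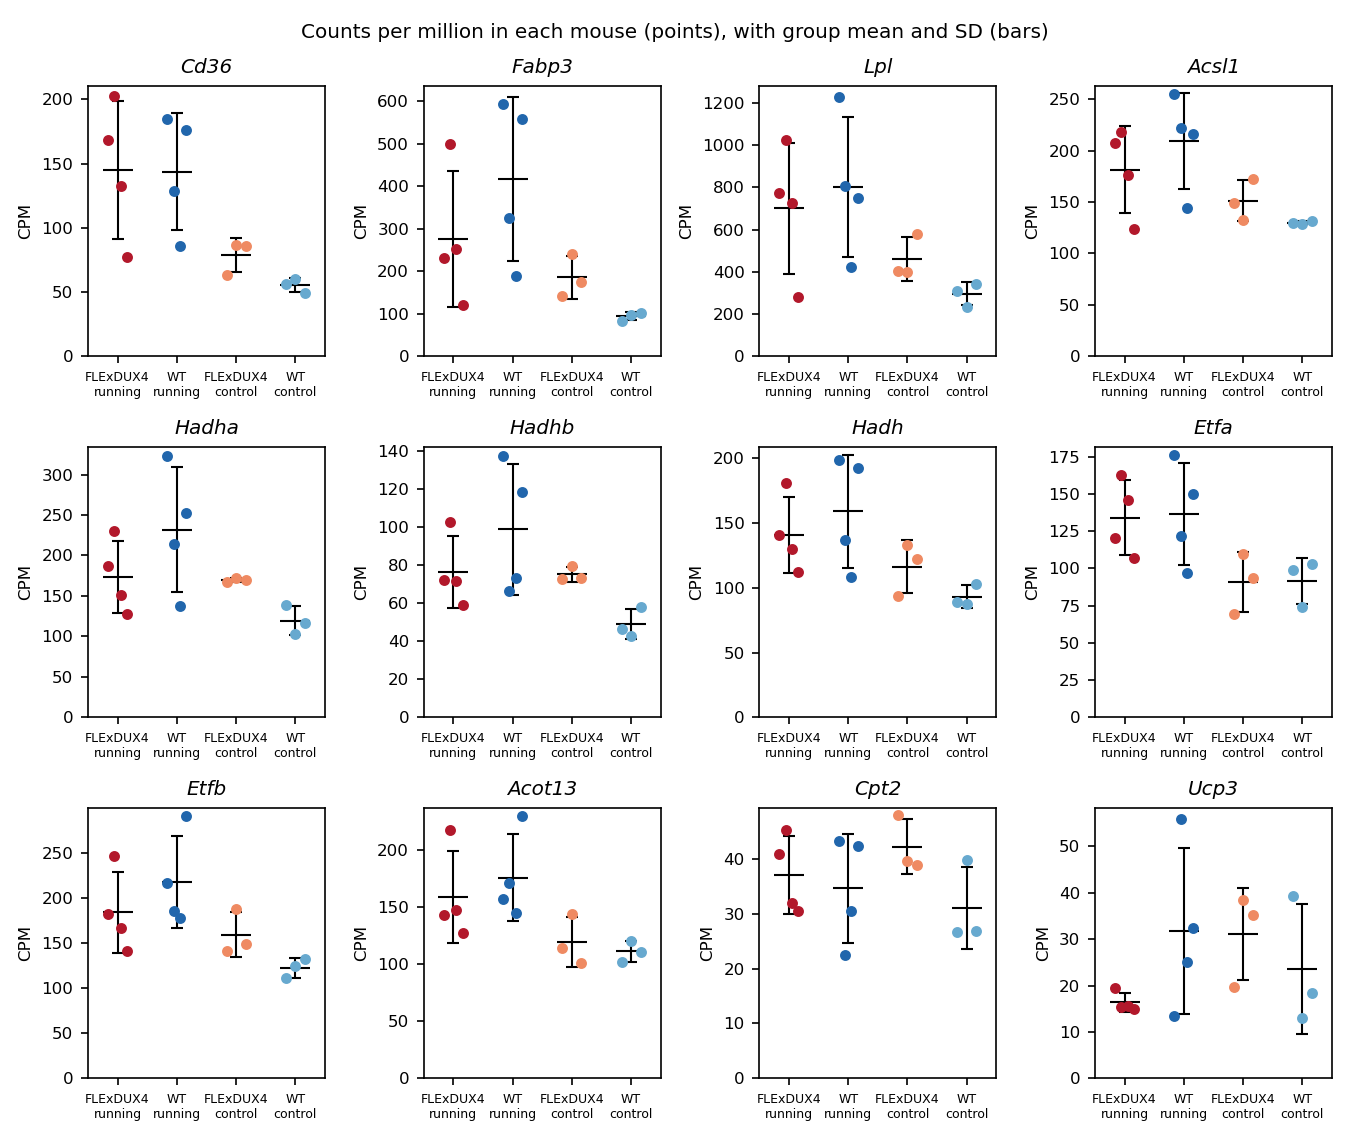
CPM (y axis, from 0) of 12 genes in each mouse (points), by group (x axis), with the group mean and SD (black bars; n = 4 runners or 3 controls). Cd36, Fabp3 and Lpl show WT runners above WT controls without overlap, Hadhb shows the FLExDUX4 groups at the same mean beside separated WT groups, Cpt2 shows overlap throughout, and Ucp3 shows FLExDUX4 runners at 15.0 to 19.4 CPM.

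The acyl-CoA dehydrogenases begin each turn of beta oxidation and differ in the chain length they accept. Acadl, the long-chain enzyme, had 129, 183, 121 and 101 CPM in FLExDUX4 runners, against 94.9, 156 and 110.2 in FLExDUX4 controls. WT runners had 256, 151, 104 and 184 CPM, against 61.2, 92.5 and 83.6 in WT controls. The WT groups did not overlap, the FLExDUX4 groups did, and the log2 differences were 0.15 ± 0.29 (adjusted p = 0.971) in FLExDUX4 mice and 1.14 ± 0.30 (adjusted p = 0.132) in WT mice. Acadm, the medium-chain enzyme, had 184, 256, 184 and 139.8 CPM in FLExDUX4 runners, against 142, 171 and 171 in FLExDUX4 controls. Its WT values were 322, 186, 144 and 224 CPM in runners, against 154, 142 and 118 in controls. WT runner 3 lay among the WT controls and the other WT runners stood above them, with a difference of 0.24 ± 0.23 (adjusted p = 0.905) in FLExDUX4 mice and 0.66 ± 0.23 (adjusted p = 0.239) in WT mice. Acads, the short-chain enzyme, had 56.95, 66.2, 44.3 and 37.5 CPM in FLExDUX4 runners, against 34.02, 61.3 and 62.9 in FLExDUX4 controls. Among WT mice, runners had 102, 62.3, 43.6 and 71.8 CPM, against 60.6, 44.3 and 43.6 in controls. Both pairs overlapped, and the WT difference of 0.50 ± 0.27 (adjusted p = 0.562) was the lowest of the 5 tested dehydrogenases.

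Acadvl, the very-long-chain enzyme bound to the inner membrane, ranged over 118 to 226 CPM in FLExDUX4 runners, 128 to 286 in WT runners, 126 to 165 in FLExDUX4 controls and 98.1 to 118 in WT controls (WT running difference 0.96 ± 0.30, adjusted p = 0.218). Of its last 500 exonic bases 410 are shared with Dvl2 on the opposite strand, which had 123 reads in all against 11110 for Acadvl. Acad11, which acts on hydroxylated and long-chain acyl groups, ranged over 18.4 to 32.3 CPM in FLExDUX4 runners, 20.5 to 30.8 in WT runners, 10.7 to 21.7 in FLExDUX4 controls and 11.8 to 16.5 in WT controls, and its WT groups did not overlap (0.74 ± 0.26, adjusted p = 0.224).

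Hadha and Hadhb encode the α and β subunits of the mitochondrial trifunctional protein, which carries out the later steps on long-chain acyl groups. Hadhb (ENSMUSG00000059447, chromosome 5, 30155248 to 30184593) had 72.1, 103, 71.4 and 58.9 CPM in FLExDUX4 runners, against 72.7, 79.3 and 73.1 in FLExDUX4 controls. For WT mice the values were 137, 66.4, 73.3 and 118 CPM in runners, against 46.5, 42.6 and 57.8 in controls. All WT runners were above all WT controls, with 2 of them (1 and 4) well above the other 2, and in FLExDUX4 mice the means were almost the same at 76.3 ± 18.7 CPM in runners (SD, n = 4) and 75.02 ± 3.71 in controls (SD, n = 3). In log2 terms the difference was 0.02 ± 0.21 (adjusted p = 0.995) in FLExDUX4 mice, while Hadhb rose by 1.02 ± 0.22 (adjusted p = 0.0411) in WT mice.

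Hadha (ENSMUSG00000025745, chromosome 5, 30118304 to 30155162) had 187, 229.8, 151 and 128 CPM in FLExDUX4 runners, against 167, 172 and 170.1 in FLExDUX4 controls. WT mice that ran had 323.0, 213.6, 137.8 and 252.7 CPM, against 138.4, 103.5 and 116.7 in WT controls. WT runner 3 lay just below the highest WT control, the 3 FLExDUX4 controls were nearly equal, and the FLExDUX4 runners lay on both sides of them. The log2 difference was 0.03 ± 0.23 (adjusted p = 0.993) in FLExDUX4 mice and 0.95 ± 0.23 (adjusted p = 0.076) in WT mice. The ratio of Hadha to Hadhb counts was 2.28 ± 0.214 in FLExDUX4 runners (SD, n = 4), 2.397 ± 0.58 in WT runners (SD, n = 4), 2.26 ± 0.0852 in FLExDUX4 controls (SD, n = 3) and 2.48 ± 0.4796 in WT controls (SD, n = 3). These ratios differed between groups by less than the spread within the WT groups.

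Both genes lie head to head on chromosome 5 with 85 bases between them (30155163 to 30155247 in GENCODE M21). The promoter windows, taken from RefSeq on GRCm38.p6 as 250 bases before to 50 bases after each start, share 228 bases. The Hadhb window (chr5:30155003-30155302, plus strand) is shown 5′ to 3′ because it holds the start of both subunit genes, with the bases between the genes in capitals.
Hadhb: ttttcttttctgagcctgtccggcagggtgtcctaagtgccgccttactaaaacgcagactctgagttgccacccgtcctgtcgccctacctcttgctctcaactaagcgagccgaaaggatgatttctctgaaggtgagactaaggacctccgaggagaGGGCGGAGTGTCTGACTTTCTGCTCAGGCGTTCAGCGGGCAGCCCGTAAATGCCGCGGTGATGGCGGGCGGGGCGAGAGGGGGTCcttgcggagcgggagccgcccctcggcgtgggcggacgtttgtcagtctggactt

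Windows were found in the RefSeq table for 25 of the 33 genes. Lpl, Cpt1b, Crat, Acad9, Acaa2, Acat1, Decr1 and Acot13 were not matched, so the share over the list is not compared with that over all windows. PPAR and ERR receptors are known to bind sites built from the hexamer AGGTCA, which was searched on both strands and is found in 16.3% of 32851 RefSeq promoter windows. Of the 25 genes with a window, 6 held it (Acacb, Acadm, Acadvl, Cd36, Echs1 and Ucp3). The other 19 did not, among them Etfb, Hadhb, Etfa and Hadh, which were called in a running contrast. Cd36 (chr5:17835847-17836146), Acadm (chr3:153944594-153944893) and Etfb (chr7:43443822-43444121) are shown as a called uptake gene with a match, a dehydrogenase long used as a model PPAR target, and the member with the smallest adjusted p in WT runners, which has no match. The first 2 are on the minus strand and Etfb on the plus strand, and capitals mark each match. A match describes these letters and is not a site. The Cd36 window lies inside the gene as GENCODE M21 draws it, so it is not the most upstream start.
Cd36: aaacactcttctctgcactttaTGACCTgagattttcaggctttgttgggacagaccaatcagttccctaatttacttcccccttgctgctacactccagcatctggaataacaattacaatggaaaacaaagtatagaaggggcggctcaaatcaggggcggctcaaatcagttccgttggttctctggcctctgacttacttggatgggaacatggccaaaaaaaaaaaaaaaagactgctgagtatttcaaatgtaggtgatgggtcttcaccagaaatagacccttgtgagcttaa
Acadm: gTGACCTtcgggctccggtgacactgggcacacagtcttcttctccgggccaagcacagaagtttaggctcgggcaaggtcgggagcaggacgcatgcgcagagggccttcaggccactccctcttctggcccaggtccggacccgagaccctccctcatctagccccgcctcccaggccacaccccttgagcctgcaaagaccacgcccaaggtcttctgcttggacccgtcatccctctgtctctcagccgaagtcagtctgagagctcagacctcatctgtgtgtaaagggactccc
Etfb: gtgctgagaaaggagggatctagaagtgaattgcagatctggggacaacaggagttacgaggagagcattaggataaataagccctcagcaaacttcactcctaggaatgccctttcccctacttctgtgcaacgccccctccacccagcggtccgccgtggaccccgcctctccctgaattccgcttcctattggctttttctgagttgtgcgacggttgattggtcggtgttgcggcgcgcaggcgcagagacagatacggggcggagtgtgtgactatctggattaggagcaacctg
The first 2 windows each hold 1 match and the Etfb window holds 0.

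Hadh (ENSMUSG00000027984, chromosome 3, 131233419 to 131272101), the hydroxyacyl-CoA dehydrogenase for medium and short chains, had 141, 181, 130.1 and 112 CPM in FLExDUX4 runners, against 93.8, 133 and 122 in FLExDUX4 controls. In WT mice it had 199, 137, 109 and 193 CPM in runners, against 89.2, 87.5 and 103 in controls. The WT groups did not overlap, and the FLExDUX4 groups overlapped with 2 of 4 runners above all controls. On the log2 scale the difference was 0.27 ± 0.18 (adjusted p = 0.841) in FLExDUX4 mice and 0.77 ± 0.19 (adjusted p = 0.0524) in WT mice, and averaged over genotype Hadh rose by 0.52 ± 0.13 (adjusted p = 0.047). Echs1, the short-chain enoyl-CoA hydratase, ranged over 42.8 to 81.8 CPM in FLExDUX4 runners, 46.5 to 78.2 in WT runners, 49.9 to 53.8 in FLExDUX4 controls and 36.4 to 43.6 in WT controls. Acaa2, a thiolase of beta oxidation, ranged over 81.8 to 195 CPM in FLExDUX4 runners, 119 to 225 in WT runners, 95.2 to 145 in FLExDUX4 controls and 62.3 to 90.96 in WT controls. The WT groups were apart for both genes, by 0.62 ± 0.20 (adjusted p = 0.16) for Echs1 and 1.20 ± 0.33 (adjusted p = 0.148) for Acaa2. Acat1, the acetoacetyl-CoA thiolase that also serves ketone body use, differed by 0.30 ± 0.15 (adjusted p = 0.477) in WT mice, the least of the 6 genes of these steps.

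Of the 3 electron transfer genes, 1 rose in WT runners and 2 rose averaged over genotype. Etfa and Etfb encode the subunits of the electron transfer flavoprotein. Etfb (ENSMUSG00000004610, chromosome 7, 43444083 to 43457800) had 182, 246, 166 and 141 CPM in FLExDUX4 runners, against 141, 187 and 148 in FLExDUX4 controls. WT runners had 216, 186, 178 and 290.4 CPM, against 111, 125 and 132 in WT controls. All WT runners were above all WT controls, with runner 4 highest, while in FLExDUX4 mice only runner 2 exceeded every control. Etfb differed by 0.21 ± 0.17 (adjusted p = 0.886) in FLExDUX4 mice, and rose by 0.83 ± 0.18 (adjusted p = 0.0322) in WT mice and by 0.52 ± 0.12 (adjusted p = 0.0353) averaged over genotype.

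Etfa (ENSMUSG00000032314, chromosome 9, 55454508 to 55512243) had 120.3, 163, 146 and 107 CPM in FLExDUX4 runners, against 69.4, 109 and 93.5 in FLExDUX4 controls. Its WT values were 176, 122, 97.04 and 149.7 CPM in runners, against 98.7, 73.9 and 103 in controls. FLExDUX4 runner 4 and WT runner 3 were the runners that lay within their control ranges. The difference was nearly the same in both genotypes, 0.56 ± 0.19 (adjusted p = 0.6) in FLExDUX4 mice and 0.57 ± 0.19 (adjusted p = 0.187) in WT mice, and averaged over them Etfa rose by 0.56 ± 0.13 (adjusted p = 0.0369). Etfdh, the dehydrogenase that passes these electrons to ubiquinone, ranged over 34.2 to 73.7 CPM in FLExDUX4 runners, 43.9 to 115 in WT runners, 36.2 to 47.9 in FLExDUX4 controls and 34.3 to 39.1 in WT controls. Its WT groups did not overlap, and the log2 difference was 0.44 ± 0.27 (adjusted p = 0.833) in FLExDUX4 mice and 1.04 ± 0.28 (adjusted p = 0.103) in WT mice.

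The 3 enzymes for unsaturated fatty acids had unlike values. Decr1, the mitochondrial dienoyl-CoA reductase, had 50.3, 42.3, 42.8 and 41.3 CPM in FLExDUX4 runners, against 41.2, 52.1 and 38.6 in FLExDUX4 controls. Among WT mice, runners had 64.7, 50.6, 52.6 and 68.3 CPM, against 35.8, 39.8 and 34.0 in controls. The FLExDUX4 groups lay within the same range and all WT runners were above all WT controls, with log2 differences of 0.01 ± 0.17 (adjusted p = 0.996) in FLExDUX4 mice and 0.69 ± 0.18 (adjusted p = 0.0589) in WT mice. Eci1, the main mitochondrial enoyl-CoA isomerase, had 75.03, 132, 89.7 and 74.1 CPM in FLExDUX4 runners, against 54.05, 88.8 and 61.4 in FLExDUX4 controls. For WT mice the values were 109.6, 85.1, 78.8 and 146 CPM in runners, against 58.1, 71.3 and 58.7 in controls. The WT groups did not overlap, FLExDUX4 runner 2 was far above its group, and the differences were 0.44 ± 0.23 (adjusted p = 0.786) in FLExDUX4 mice and 0.74 ± 0.23 (adjusted p = 0.16) in WT mice. Eci2, an isomerase found in peroxisomes and mitochondria, had 44.9, 44.4, 48.8 and 56.3 CPM in FLExDUX4 runners, against 56.2, 69.8 and 52.2 in FLExDUX4 controls. WT mice that ran had 59.8, 47.8, 53.2 and 64.4 CPM, against 51.95, 46.5 and 40.6 in WT controls. Both pairs overlapped, and the values were -0.28 ± 0.17 (adjusted p = 0.818) in FLExDUX4 mice and 0.28 ± 0.17 (adjusted p = 0.613) in WT mice.

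Acyl-CoA thioesterases release free fatty acids from CoA. Acot13 (ENSMUSG00000006717, chromosome 13, 24817948 to 24831540), an enzyme associated with mitochondria, had 143, 217, 148 and 127 CPM in FLExDUX4 runners, against 114, 144 and 101 in FLExDUX4 controls. In WT mice it had 157, 172, 145 and 230.2 CPM in runners, against 102, 120.3 and 111 in controls. The WT groups did not overlap, and in FLExDUX4 mice runners 2 and 3 were above all controls. In log2 terms the difference was 0.41 ± 0.17 (adjusted p = 0.71) in FLExDUX4 mice and 0.66 ± 0.18 (adjusted p = 0.0747) in WT mice, and Acot13 rose by 0.54 ± 0.12 (adjusted p = 0.0315) averaged over genotype. Acot2, a matrix thioesterase, ranged over 9.69 to 11.7 CPM in FLExDUX4 runners, 7.51 to 27.5 in WT runners, 5.403 to 10.97 in FLExDUX4 controls and 9.26 to 11.7 in WT controls. Acot2 is nearly identical to its neighbour Acot1, so the split of reads between them is uncertain.

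Malonyl-CoA blocks the entry of fatty acids into mitochondria, and the 2 genes for its turnover had values near or below 0 in FLExDUX4 mice. Mlycd, the decarboxylase that removes it, had 45.9, 43.3, 47.3 and 39.3 CPM in FLExDUX4 runners, against 46.1, 51.9 and 57.8 in FLExDUX4 controls. WT runners had 50.5, 41.4, 48.1 and 65.5 CPM, against 19.98, 41.05 and 58.1 in WT controls. The 3 WT controls were spread wider than the WT runners, and the log2 differences were -0.25 ± 0.22 (adjusted p = 0.9) in FLExDUX4 mice and 0.38 ± 0.23 (adjusted p = 0.593) in WT mice. Acacb, the acetyl-CoA carboxylase that makes it at mitochondria, had 80.7, 74.01, 90.9 and 77.96 CPM in FLExDUX4 runners, against 89.2, 68.6 and 117 in FLExDUX4 controls. Its WT values were 101, 81.2, 75.1 and 85.7 CPM in runners, against 107, 73.9 and 89.7 in controls. Both pairs of groups overlapped, with differences of -0.19 ± 0.17 (adjusted p = 0.895) and -0.07 ± 0.17 (adjusted p = 0.947) for FLExDUX4 and WT mice, and Acacb was the 1 member with a WT value below 0. That sign turned with spike-in library sizes (0.31) and without WT control 1 (0.07).

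Ucp3, a mitochondrial carrier of muscle tied to fatty acid use, had 19.44, 15.34, 15.66 and 14.96 CPM in FLExDUX4 runners, against 19.75, 38.40 and 35.12 in FLExDUX4 controls. Among WT mice, runners had 13.5, 55.9, 25.2 and 32.4 CPM, against 39.3, 12.96 and 18.4 in controls. FLExDUX4 runners were all below FLExDUX4 controls, but the highest runner and the lowest control nearly touched, and the WT values were scattered in both groups. The log2 difference was -0.93 ± 0.46 (adjusted p = 0.786) in FLExDUX4 mice and 0.43 ± 0.46 (adjusted p = 0.848) in WT mice.

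**Figure D3:**
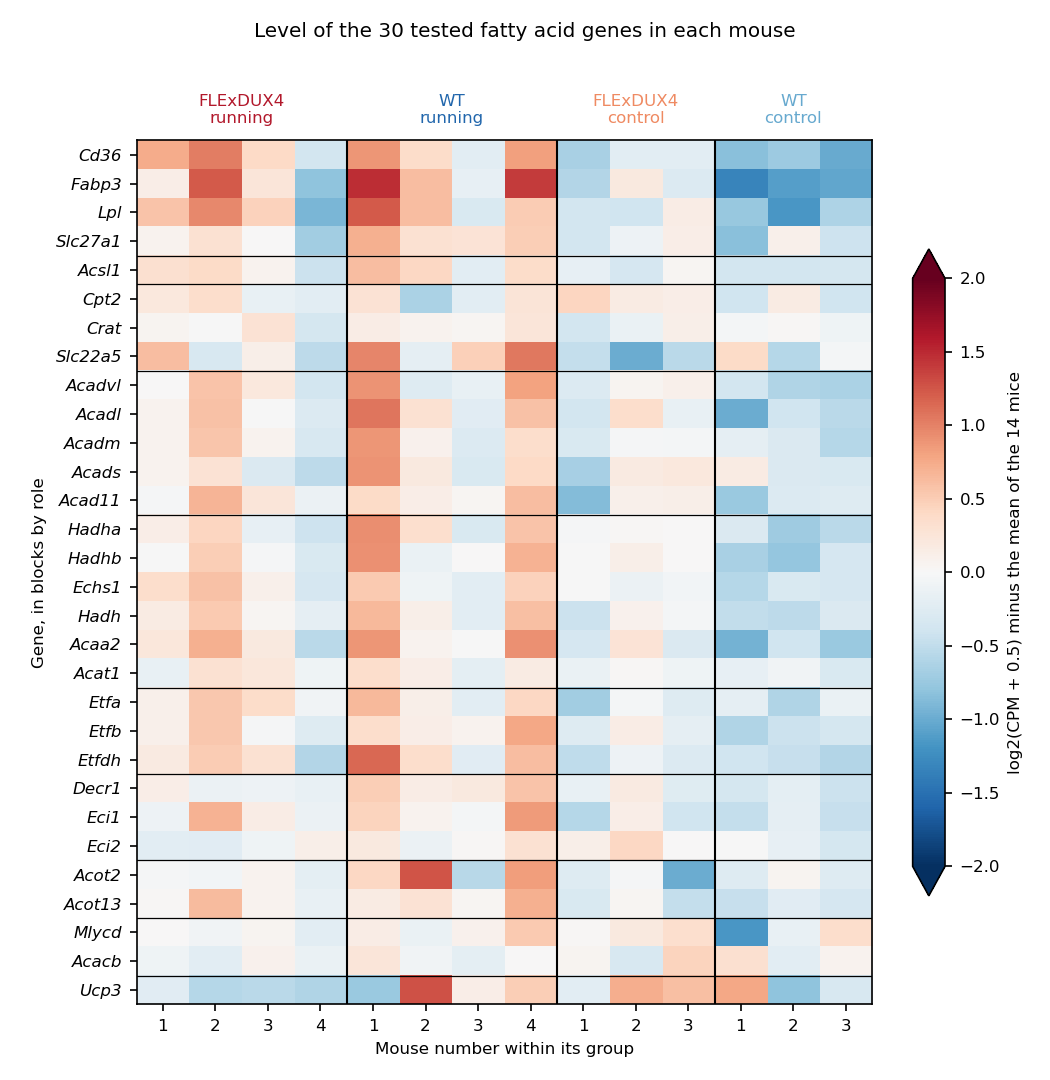
Level of the 30 tested genes (rows, blocks by role) in each mouse (columns, by group), as log2(CPM + 0.5) minus the gene's mean over the 14 mice; red is above and blue below that mean, and the scale ends at 2 either way. WT runners 1 and 4 and FLExDUX4 runner 2 are red over most rows. FLExDUX4 runner 4, FLExDUX4 control 1 and the 3 WT controls are blue over most rows. The median of WT runner 3 over the 30 genes is also below the mean (-0.17). Ucp3, Acacb, Mlycd and Eci2 do not follow that pattern.

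Most members moved together from mouse to mouse within a group. With each group centred, the correlation of a member with the median of the others over the 14 mice was lowest for Ucp3 (-0.17) and Acacb (0.08). Next came Eci2 (0.11), Mlycd (0.21), Slc22a5 (0.25) and Acot2 (0.28). FLExDUX4 runner 4 was the lowest of its 4 mice in 27 of 30 members, where it was the lowest for 24.9% of all tested genes, and FLExDUX4 runner 2 was the highest in 22 (28.6% of all genes). WT runner 3 was the lowest in 22 (25% of all genes), WT runner 1 the highest in 18 (26.8%) and WT runner 4 the highest in 10 (22.7%). FLExDUX4 control 1 was the lowest of its 3 mice in 20 (36.2%) and control 2 the highest in 18 (32.5%), whereas the WT controls shared the lowest place with 12, 9 and 9 members.

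Summed over all 33 genes, the level was 3643, 4887, 3577 and 2408 CPM in FLExDUX4 runners and 5642, 3851, 2849 and 4904 CPM in WT runners, against 2585, 3157 and 3098 CPM in FLExDUX4 controls and 2283, 2219 and 2302 CPM in WT controls. WT controls were the tightest group, all 3 below every other mouse. The 13 slow fibre contractile genes summed to 772, 1133, 387 and 69.1 CPM in FLExDUX4 runners and 862, 149.7, 174 and 812 CPM in WT runners, against 215, 254 and 549 CPM in FLExDUX4 controls and 66.3, 63.3 and 50.2 CPM in WT controls. The mice highest in the fatty acid sum (WT runners 1 and 4 and FLExDUX4 runner 2) were also the highest 3 in slow fibre genes, and the lowest runner, FLExDUX4 runner 4, had slow fibre genes near the level of WT controls. In WT runners all 12 tested slow fibre genes were above 0 (median log2 difference 3.08), with none called by edgeR. At an unadjusted p under 0.05 there were 8, against 10.7% of all genes. The 9 skeletal muscle markers, most of them fast fibre genes, were all below 0 in WT runners (median -0.31). Of these, 5 had an unadjusted p under 0.05, beside the same 10.7%. With spike-in library sizes 6 of the 9 were above 0 and 3 below (median 0.04). Averaged over genotype, 1 of these 9 fell, where 0.307% of all genes were called lower. It was Ryr1, the calcium release channel of muscle, which fell by 0.42 ± 0.10 (adjusted p = 0.0354). That call was lost with spike-in library sizes and in 8 of the 14 fits that leave out 1 mouse. Mitochondrially encoded transcripts made up 26.6% to 39.8% of gene counts in FLExDUX4 runners, 26.99% to 36.6% in WT runners, 20.5% to 29.2% in FLExDUX4 controls and 20.9% to 26.4% in WT controls. The part of fibre type and mitochondrial content in the fatty acid genes was not tested.

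**Figure D4:**
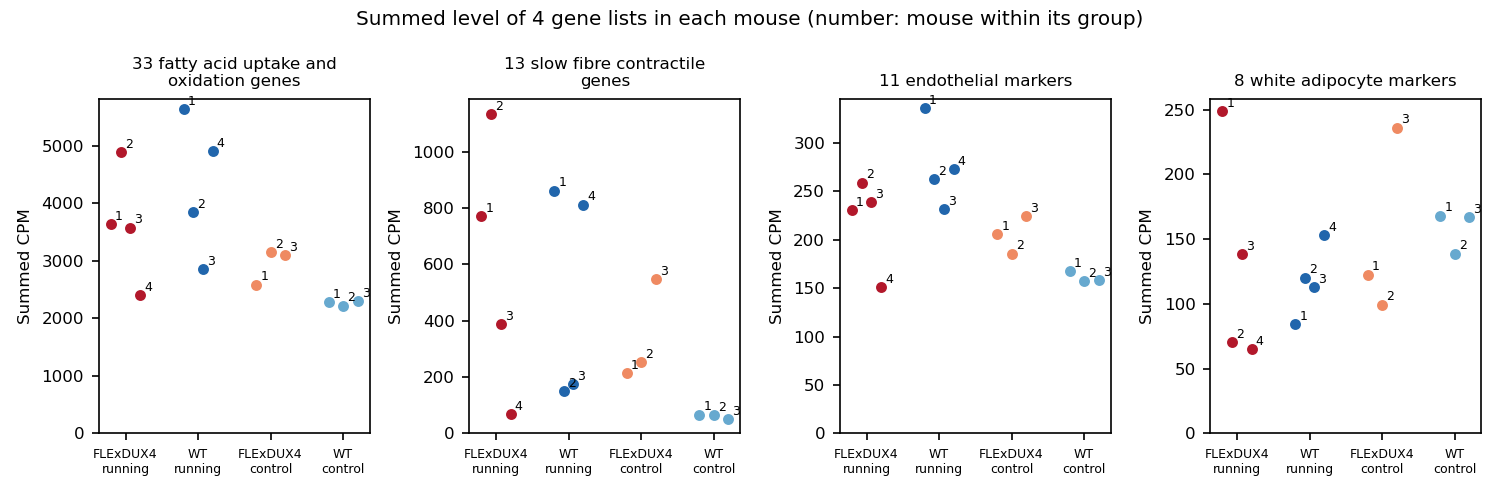
Summed CPM (y axes, each from 0) of the 33 fatty acid genes, 13 slow fibre contractile genes, 11 endothelial markers and 8 white adipocyte markers in each mouse (points, numbered within the group), by group (x axis). WT runners 1 and 4 and FLExDUX4 runner 2 are highest in the first 2 panels, and the 3 WT controls lie together at 2219 to 2302 CPM for the fatty acid genes.

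Without running, most members were higher in FLExDUX4 than in WT muscle, but none passed the test. Of 30 members 26 were above 0 in FLExDUX4 controls against WT controls, with a median of 0.31 (all genes 0.00). In the same contrast all 12 tested slow fibre genes were above 0 (median 2.42), 4 of them at an unadjusted p under 0.05. Of 10 tested endothelial markers 9 were above 0 and 1 below (median 0.50). The 9 skeletal muscle markers had 2 above 0 and 7 below (median -0.15). edgeR, DESeq2 and limma-voom each called 0 members (edgeR called 0% of all genes), and 1 member, Hadhb, had an unadjusted p under 0.05 (5% of all genes). In 12 of 30 members every FLExDUX4 control was above every WT control, against 5.93% of all genes, and in 0 was the order reversed (5.47%). These were Cd36, Fabp3, Lpl, Acsl1, Acadvl, Acadl, Hadha, Hadhb, Echs1, Acaa2, Etfb and Eci2. Hadhb averaged 75.02 ± 3.71 CPM in FLExDUX4 controls and 48.9 ± 7.89 CPM in WT controls (SD, n = 3 each), a difference of 0.62 ± 0.23 (adjusted p = 0.969). Fabp3 averaged 186 ± 50.97 CPM in FLExDUX4 controls and 94.9 ± 9.62 CPM in WT controls (SD, n = 3 each), a difference of 0.97 ± 0.52 (adjusted p = 0.972). It was the 1 member called when only the control groups were fitted, where 23 of 9593 tested genes were called.

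After running, the order of the genotypes was the other way for most members, again with no call. In FLExDUX4 runners against WT runners 27 of 30 members were below 0, with a median of -0.22 (all genes -0.01). edgeR, DESeq2 and limma-voom each called 0 members (0% of all genes with edgeR). An unadjusted p under 0.05 was found for 3, Decr1, Acot2 and Ucp3, against 3.16% of all genes. Decr1 was lower in every FLExDUX4 runner than in any WT runner, the only tested member without overlap (1.15% of all genes were lower in this way and 1.36% higher), although 50.3 CPM in FLExDUX4 runner 1 nearly met 50.6 CPM in WT runner 2. The log2 differences were -0.42 ± 0.16 (adjusted p = 0.999) for Decr1, -0.71 ± 0.30 (adjusted p = 0.999) for Acot2 and -0.96 ± 0.43 (adjusted p = 0.999) for Ucp3. Cd36, by contrast, averaged 145 ± 53.7 CPM in FLExDUX4 runners and 144 ± 45.7 CPM in WT runners (SD, n = 4 each).

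The running effect in FLExDUX4 mice minus that in WT mice was below 0 for 29 of 30 members, with a median of -0.53 (all genes -0.01). The test of this difference called 0 members with edgeR, DESeq2 or limma-voom (0% of all genes with edgeR), so a smaller running effect in FLExDUX4 mice was not established for any single gene. At an unadjusted p under 0.05 there were 7, against 4.84% of all genes: Hadhb, Decr1, Hadha, Etfb, Eci2, Acadl and Fabp3. Hadhb had a difference of effects of -0.997 ± 0.30 (unadjusted p = 0.00308, adjusted p = 0.954), and Fabp3 of -1.57 ± 0.69 (unadjusted p = 0.0448, adjusted p = 0.954). For Etfa the difference of effects was -0.02 ± 0.27 (adjusted p = 0.999). The 3 WT controls enter both the WT running effect and the comparison of controls, so the low WT controls and the 26 members higher in FLExDUX4 controls are not separate observations from the larger WT effect. Averaged over running, the genotypes differed by a median of 0.04, with 0 members called by edgeR, DESeq2 or limma-voom and 1, Acot2, at an unadjusted p under 0.05 (3.77% of all genes).

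Genes of neighbouring pathways showed how far the pattern reached. Of 32 tested other genes of fatty acid handling, 3 rose and 0 fell in WT runners (median 0.38), where 0.397% of all genes were called higher. They were Slc25a20, the carnitine carrier of the inner membrane, Plin5, a lipid droplet protein that links droplets to mitochondria, and Pnpla2, the first lipase of stored triglyceride. Pnpla2 had 131, 120.0, 128 and 109 CPM in FLExDUX4 runners, against 102, 95.5 and 111 in FLExDUX4 controls. For WT mice the values were 139.7, 147, 111 and 131 CPM in runners, against 95.1, 75.8 and 84.8 in controls. Runners and controls did not overlap in WT mice, where Pnpla2 rose by 0.64 ± 0.15 (adjusted p = 0.0411), a call lost in 10 of the 14 fits that leave out 1 mouse. The WT call was lost in 4 of these fits for Slc25a20 and in 5 for Plin5. The FLExDUX4 values overlapped in 1 place, runner 4 at 109 CPM against control 3 at 111 CPM. Averaged over genotype, 4 of these 32 rose, where 0.55% of all genes were called higher, the fourth being Acss1, the mitochondrial acetyl-CoA synthetase (1.00 ± 0.23, adjusted p = 0.0287, lost in 7 of those fits). On that average the call was lost in 9 fits each for Plin5 and Pnpla2 and in 0 for Slc25a20.

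The 16 tested genes of peroxisomal beta oxidation centred on a median of 0.12 in WT runners, 10 of them above 0, 6 below and 2 at an unadjusted p under 0.05, a share near the 10.7% of all genes. With spike-in library sizes 15 of the 16 were above 0 (median 0.50). Of 4 tested genes of ketone body use, Slc16a1, a carrier of monocarboxylates, rose by 0.65 ± 0.16 (adjusted p = 0.0401) averaged over genotype, a call lost in 11 of the 14 such fits. The 20 regulators were divided in WT runners, with 11 above 0, 9 below and a median of 0.16. Of the 20, 7 had an unadjusted p under 0.05, against 10.7% of all genes. Averaged over genotype 12 were above 0 and 8 below (median 0.12). Of these, 1 was called, as lower, where 0.307% of all genes were called lower. That was Nrip1, a corepressor that restrains oxidative metabolism in muscle, with a log2 difference of -0.60 ± 0.14 (adjusted p = 0.0335). Nrip1 lost this call with spike-in library sizes, with limma-voom and in 8 of the 14 fits that leave out 1 mouse. It had 66.3, 47.6, 60.5 and 54.9 CPM in FLExDUX4 runners, against 106, 96.0 and 74.6 in FLExDUX4 controls, and 39.8, 76.01, 63.5 and 42.5 CPM in WT runners, against 79.1, 61.8 and 96.9 in WT controls. All FLExDUX4 runners were below all FLExDUX4 controls, and the WT groups overlapped. Ppara, the PPAR best known for fatty acid oxidation genes, had 16.5, 15.6, 10.8 and 7.13 CPM in FLExDUX4 runners, against 12.9, 16.2 and 13.8 in FLExDUX4 controls, and 17.8, 8.52, 5.68 and 14.5 CPM in WT runners, against 4.21, 4.11 and 4.81 in WT controls. WT controls were below all other mice, and Ppara differed by 1.41 ± 0.38 (adjusted p = 0.0747) in WT runners and by 1.71 ± 0.39 (adjusted p = 0.407) in FLExDUX4 against WT controls. Ppard differed by 0.44 ± 0.36 (adjusted p = 0.758) and Ppargc1a, the coactivator of mitochondrial biogenesis, by 0.44 ± 0.19 (adjusted p = 0.364) in WT runners.

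The authors' deposited table held its own test of WT controls over WT runners, with signs that run the other way. It gave an adjusted p to 26 of the 33 members and 18 of these were under 0.05, all lower in WT controls, against 299 of 3021 genes. In the authors' deposited table Hadhb stood at -0.87 (adjusted p = 0.001154) and Fabp3 at -1.29 (adjusted p = 0.000663). For running in FLExDUX4 mice the authors' deposited table held 0 calls among 29 members with an adjusted p, and 4 of 7532 over all genes. For genotype in controls and in runners it held 0 among 33 members each, and 1 of 22687 genes each. Its 2 comparisons that change genotype and running together were not used here.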

How the data were processed

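Triceps RNA of 14 mice was sequenced as QuantSeq FWD 3′ libraries. Deposited values were unnormalized counts of reads for each gene in each mouse, and the authors' own log2 fold changes and adjusted p-values of group comparisons, from which members are quoted in 1 place. Per the submitters' processing notes, STAR 2.5.3a and featureCounts 1.6.2 (Subread) were used, with cutadapt 1.16, FastQC 0.11.7 and DESeq2, and GRCm38 and GRCh38 are named as builds. Which annotation, which strand setting and how multi-mapping reads were treated is not given in the sources used here.

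The 99 spike-in sequences were set aside. Counts were fitted with edgeR 4.0.16 in R 4.3.3, with TMM factors, filterByExpr at a minimum count of 10, and 1 robust quasi-likelihood fit with 1 mean per group over all 14 libraries (common biological coefficient of variation 0.288). The contrasts were running in each genotype, genotype in controls and in runners, their interaction, and both averages. The average of genotype over running gave 0 calls. P values were adjusted by Benjamini-Hochberg over all 11088 tested genes and called under 0.05. CPM are counts scaled to the TMM-adjusted library size. Positions come from GENCODE M21, where 32 of 33 members have the start given in the table.

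Mice are numbered within a group in the order of the sample records, and the groups follow the labels. Replicates of a group differed by a chi-square of at least 5.46 per degree of freedom, so no pair looked like a repeat. Counting floors and p-values do not cover duplicate reads, and no molecular identifiers are named in the sources used here. Alternatives were DESeq2 1.42.0, limma-voom 3.58.1, RLE factors, spike-in library sizes, counts without 37 mitochondrially encoded genes, 2 other low-count filters, no robust estimate, fits of the compared groups alone, and 14 fits that leave out 1 mouse. The members, lists and alternatives were chosen with earlier results of these data known. Values per mouse are given for members called in any contrast, for the member with the smallest p and the highest mean in each role, and for members that run against the median of the members. From other pathway lists, called genes are named (up to 4 per list), with Ppara, Ppard and Ppargc1a.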

Additional observations from a re-analysis of the deposited data

Results flagged for a closer look

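Within the groups of 4 runners, 60 gene and group pairs were examined for a mouse set apart from the rest, and 2 were found, both in FLExDUX4 runner 1. Decr1 was at 50.3 CPM there, with the nearest other FLExDUX4 runner at 42.8 CPM, a gap of 0.842 of the group's range. Ucp3 was at 19.4 CPM there, with the nearest at 15.7 CPM, a gap of 0.845 of the range. The gap counts as unusual above 0.829. Chance flags about 1 in 20 groups, which is more than were found here.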

How the results depend on the processing

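Counts were high enough to test 30 of the 33 members. The direction of the median over the members held in the 7 contrasts under each alternative test, scaling, filter and sample choice, apart from genotype averaged over running, whose median was near 0 (0.04, and -0.03 to 0.08 with a mouse left out). With spike-in library sizes the median was 1.11 for running in WT, 0.62 for genotype in controls and -0.89 for the interaction, beside shifts of all genes by 0.36, 0.31 and -0.32.

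For running in WT the 2 calls, among 55 over all genes, became 15 with DESeq2 (among 194) and 22 with spike-in library sizes (604). They were 15 with no filter on low counts (217) and 8 without the robust estimate (74). When 1 mouse was left out they were 0 to 15 (0 to 197 over all genes). For running averaged over genotype the 5 calls, among 95, became 15 with DESeq2 (273), 2 with limma-voom (70) and 14 with spike-in library sizes (430). They were 15 with no filter (291), and 0 to 13 when 1 mouse was left out (17 to 286). In contrasts with 0 calls, no filter gave 1 for running in FLExDUX4 (Cd36, among 24 called of 20938 genes). It also gave 1 for the interaction (Hadha, among 11 called of 20938). Fitting only the controls gave 1 for genotype (Fabp3, among 23 called of 9593). The sign of some values near 0 turned: Acacb for running in WT was 0.31 with spike-in library sizes, and for running in FLExDUX4 Hadhb was -0.024 and Hadha -0.014 with limma-voom. With a mouse left out, the range for running in FLExDUX4 was -0.16 to 0.13 for Hadhb, -0.13 to 0.16 for Hadha, -0.077 to 0.16 for Decr1, -0.044 to 0.38 for Acadl and -0.35 to 0.038 for Acacb, and for running in WT it was -0.20 to 0.068 for Acacb. The cause of these changes was not tested. No paired analysis was possible because the numbers in the labels name single mice and no number is shared between groups.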
